A study of Mus musculus with 8 samples.

Results

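The urokinase receptor gene Plaur and 3 partners of plasminogen activation, Plau, Plat and Serpinb2, were followed in cecal tumors of mice given tamoxifen or vehicle, all carrying floxed alleles of the transcription factor gene Etv1. The 4 genes were taken by symbol from the 34586 symbols of the deposited table, where each has a single row. Plaur was selected on its FPKM in these same libraries, where it was higher after tamoxifen, so its difference between the groups is a description here and carries no test. The other 3 were added as its ligand, a second activator and an inhibitor.

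Plasminogen, a zymogen made mainly by the liver, is cut to plasmin by the urokinase-type activator (uPA, gene Plau) and the tissue-type activator (tPA, gene Plat). The urokinase receptor (uPAR, gene Plaur) is a GPI-anchored protein of the Ly6/uPAR domain family that holds uPA at the cell surface, while serpins such as PAI-2 (gene Serpinb2) inhibit the activators. The system is known for fibrin removal, matrix turnover, cell migration and wound repair, and uPAR is a marker of activated myeloid cells and of epithelium at wound edges.

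RNA sequencing covered 8 tumors, 4 from tamoxifen-treated mice and 4 from vehicle-treated mice. All were C57BL/6 mice of the genotype Kit V558Delta/+ with Etv1 flox/flox and Rosa26 CreERT2/CreERT2. The mutant receptor Kit drives growths that model the gastrointestinal stromal tumor (GIST), and the Rosa26 locus is active in most cell types, so tamoxifen can delete Etv1 outside the tumor cells too. Vehicle tumors carry the floxed alleles and the recombinase as well, so exposure to tamoxifen and deletion of Etv1 cannot be told apart. The sources used here give neither the dose, nor the time after treatment, nor the age.

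Values are gene-level FPKM, which are fragments scaled by transcript length and library size, so levels of different genes can be compared. Relative read depth, estimated from the value of 1 read in low genes, ranged 1.41-fold over the 8 libraries, and absolute depth is unknown. Kit, the receptor that defines the tumor type, measured 386 to 567 FPKM in tamoxifen tumors and 542 to 892 FPKM in vehicle tumors. Etv1 measured 34.9, 19.7, 31.4 and 17.4 FPKM in tamoxifen replicates 1 to 4, against 34.6, 51.1, 40.4 and 38.6 FPKM in vehicle replicates 1 to 4, so the groups overlapped (limma adjusted p = 0.13). These are values of the whole gene, not of the floxed part, and do not show a loss of Etv1 in each tamoxifen library. Whether replicates are separate mice is not stated, so the p-values reflect the spread between these samples, which may be technical.

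Plaur (ENSMUSG00000046223, mm9 chromosome 7, 25247519 to 25260892, with no other gene of the table overlapping it) measured 15.4, 11.7, 12.2 and 12.9 FPKM in tamoxifen replicates 1 to 4. In vehicle replicates 1 to 4 it measured 2.98, 2.65, 1.66 and 2.70 FPKM. Every tamoxifen tumor lay above every vehicle tumor, and the lowest tamoxifen level was several times the highest vehicle level. The means were 13.0 ± 1.62 FPKM in tamoxifen tumors and 2.50 ± 0.579 FPKM in vehicle tumors (SD, n = 4 each), a ratio of 5.22. On the log2(FPKM + 1) scale, which understates the change of low genes, the difference was 2.02 (SE 0.16). By level, Plaur stood above 78.2% to 81.7% of all symbols in tamoxifen tumors and above 61.9% to 65.3% in vehicle tumors.

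The authors' deposited confidence bounds on each Plaur value, whose confidence level is not stated, overlapped slightly between the groups and are given as a description. The lower bounds in tamoxifen tumors were 4.78 to 6.65 FPKM and the upper bounds in vehicle tumors 2.90 to 5.05 FPKM. Across the transcriptome 819 of 15023 tested genes, or 5.45%, passed an adjusted p of 0.05, with 2.38% higher and 3.07% lower, and the groups did not overlap in 15.1%, with 7.37% higher and 7.74% lower. Plaur ranked 96 among these genes by the size of its increase on the log2(FPKM + 1) scale.

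**Figure D1:**
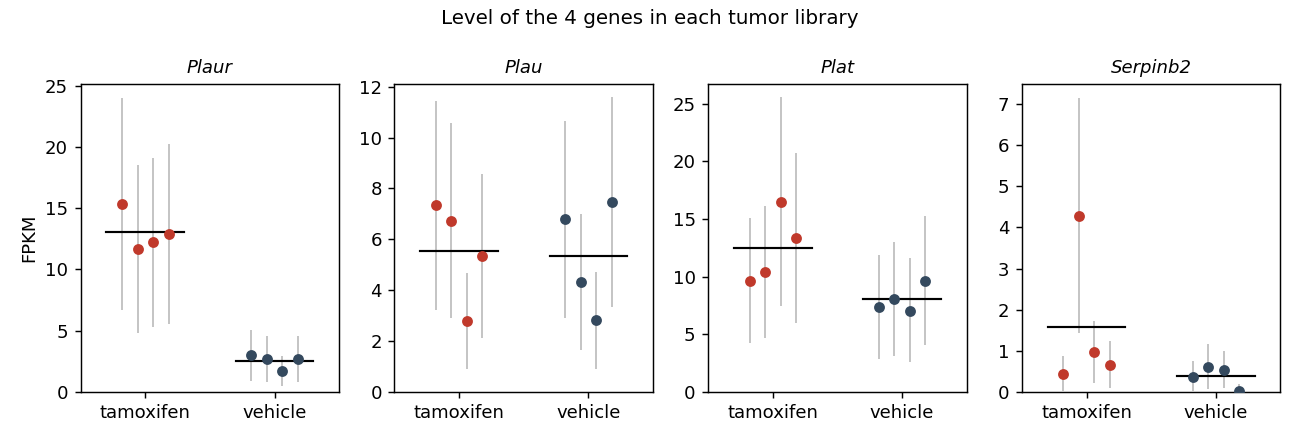
FPKM of Plaur, Plau, Plat and Serpinb2 in each library, tamoxifen left of vehicle, with replicates 1 to 4 from left to right within a group, black lines at the group mean and grey bars for the authors' deposited confidence bounds. Plaur sits between 11.7 and 15.4 FPKM in tamoxifen tumors and between 1.66 and 2.98 FPKM in vehicle tumors, Plat differs less, Plau overlaps, and Serpinb2 is low except for 4.28 FPKM in tamoxifen replicate 2.

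The Plaur promoter is shown because Etv1, an ETS factor, was the targeted gene and because the AP-1 subunit gene Fos rose in these tumors. RefSeq promoters of GRCm38.p6, with 250 bases before and 50 after the start of the gene, were found for 2 of the 4 members, Plaur and Serpinb2. The promoter of Anxa2, a cell-surface receptor for plasminogen and tPA that also rose, stands beside them. It was the only non-member searched and was picked with its rise known, so the 3 windows are no sample of genes that rose. Capitals mark the AP-1 motif TGANTCA, searched on both strands.
Plaur (chr7:24462233-24462532, + strand): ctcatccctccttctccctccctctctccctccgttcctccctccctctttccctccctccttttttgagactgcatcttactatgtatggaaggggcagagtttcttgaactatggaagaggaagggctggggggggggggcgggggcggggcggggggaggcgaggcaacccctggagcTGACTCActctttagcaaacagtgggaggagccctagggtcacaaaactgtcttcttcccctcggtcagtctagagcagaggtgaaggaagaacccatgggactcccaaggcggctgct
Serpinb2 (chr1:107511173-107511472, + strand, the first of 2 listed starts): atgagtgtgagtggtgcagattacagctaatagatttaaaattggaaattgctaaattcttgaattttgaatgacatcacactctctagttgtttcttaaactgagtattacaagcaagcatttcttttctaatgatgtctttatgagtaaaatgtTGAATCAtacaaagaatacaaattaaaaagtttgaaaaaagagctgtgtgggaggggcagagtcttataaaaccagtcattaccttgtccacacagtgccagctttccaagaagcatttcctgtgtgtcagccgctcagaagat
Anxa2 (chr9:69453433-69453732, + strand): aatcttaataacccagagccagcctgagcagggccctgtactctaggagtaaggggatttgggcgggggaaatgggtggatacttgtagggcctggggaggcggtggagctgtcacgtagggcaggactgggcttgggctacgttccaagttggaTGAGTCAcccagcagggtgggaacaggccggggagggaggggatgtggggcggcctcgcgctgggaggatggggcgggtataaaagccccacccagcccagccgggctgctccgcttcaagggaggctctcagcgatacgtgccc
Each held 1 match, beginning 69 bases before the start in Plaur, 94 in Serpinb2 and 95 in Anxa2. Of all 32851 promoters in the table, 7.81% held this motif. The ETS motif CGGAAG, searched on both strands, was in none of the 3 windows and in 16.9% of all promoters. Its core GGAA, which overlaps it, was matched 7 times in the Plaur window, but 96% of all promoters held it. The GC box GGGCGG, also searched on both strands, was matched 3 times in Plaur, 3 times in Anxa2 and not in Serpinb2, against 35.7% of all promoters with a match. These are matches of letters only, and binding was not measured. Control of these genes by AP-1 or ETS factors was not tested.

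No gene around Plaur passed the test. Within 200000 bases on either side in mm9, 12 other genes were tested and 0 passed (limma with Benjamini-Hochberg adjustment), with log2 fold changes of -0.84 to 0.43. At an unadjusted p under 0.05 there was 1, the relative Tex101, at -0.84. Cadm4, a cell adhesion gene 6150 bases away and the next tested gene on its side, measured 20.3 ± 5.87 FPKM in tamoxifen and 17.0 ± 6.67 FPKM in vehicle tumors (adjusted p = 0.623). On the other side, the nearest tested gene, Smg9, listed under an older symbol, had a log2 fold change of 0.12 (adjusted p = 0.719).

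Plau (ENSMUSG00000021822, mm9 chromosome 14, 21655884 to 21662610) encodes uPA, the ligand of uPAR. It measured 7.34, 6.73, 2.77 and 5.33 FPKM in tamoxifen replicates 1 to 4, against 6.79, 4.31, 2.81 and 7.46 FPKM in vehicle replicates 1 to 4. The groups covered nearly the same range, and each held a library near 2.8 FPKM. The log2 fold change was 0.05 (SE 0.33, 95% interval -0.69 to 0.79, limma adjusted p = 0.943), so neither a fall nor a rise within that interval can be told from none. The ratio of receptor to ligand, Plaur over Plau in FPKM, was 2.09, 1.74, 4.41 and 2.42 in tamoxifen replicates 1 to 4 and 0.439, 0.615, 0.589 and 0.361 in vehicle replicates 1 to 4. By these FPKM, receptor RNA exceeded ligand RNA in the 4 tamoxifen tumors and was below it in the 4 vehicle tumors. This description uses the Plaur values for which the gene was picked. The deposited confidence bounds of Plaur and Plau overlapped in every library except tamoxifen replicate 3.

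Plat (ENSMUSG00000031538, mm9 chromosome 8, 23868216 to 23893319) encodes tPA, the main activator for fibrin removal in blood vessels. It measured 9.65, 10.4, 16.5 and 13.4 FPKM in tamoxifen replicates 1 to 4, against 7.36, 8.04, 7.03 and 9.61 FPKM in vehicle replicates 1 to 4. The groups did not overlap, but the lowest tamoxifen tumor and the highest vehicle tumor were almost level. The means were 12.5 ± 3.12 FPKM in tamoxifen and 8.01 ± 1.14 FPKM in vehicle tumors (SD, n = 4 each), and the log2 fold change of 0.56 (SE 0.18, 95% interval 0.15 to 0.97) did not pass (limma adjusted p = 0.107, and 0.0128 before adjustment). The sample identifiers fall into 2 ranges, which the labels do not call batches. Within the lower range Plat measured 9.65 and 10.4 FPKM in tamoxifen tumors against 7.36, 8.04 and 7.03 FPKM in vehicle tumors. Within the upper range it measured 16.5 and 13.4 FPKM in tamoxifen tumors against 9.61 FPKM in the vehicle tumor, and with this range as a covariate the adjusted p was 0.0584. The summed level of 8 endothelial markers, of which 3 rose, differed the same way, with 80.2 to 116 FPKM summed in tamoxifen and 47.4 to 63.5 FPKM in vehicle tumors. Their part in the Plat values was not tested.

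Serpinb2 (ENSMUSG00000062345, mm9 chromosome 1, 109408000 to 109445848) encodes PAI-2, an inhibitor of uPA that macrophages and stratified epithelia can produce in quantity. Its locus also holds the pseudogene Serpinb10-ps. It measured 0.442, 4.28, 0.965 and 0.662 FPKM in tamoxifen replicates 1 to 4, against 0.366, 0.609, 0.539 and 0.0106 FPKM in vehicle replicates 1 to 4. A single library, tamoxifen replicate 2, stood far above the other 7, and the rest of the groups overlapped. The mean over the 8 libraries was under the 1 FPKM needed for testing, so Serpinb2 has no test in that fit. With no filter on level, the log2 fold change was 0.72 (limma adjusted p = 0.394).

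Tamoxifen replicate 2 was also high in several myeloid genes, though not in all. Its summed macrophage and monocyte markers were 2532 FPKM, of which Lyz2 gave 1183 FPKM. The sum was 823 to 1471 FPKM in the other tamoxifen tumors and 953 to 1359 FPKM in vehicle tumors. Fcgr1 measured 25.5 FPKM in tamoxifen replicate 2, against up to 30.4 FPKM in vehicle tumors. Itgam, Fpr1 and Fpr2 were named after their values were seen. Itgam, an integrin chain that partners with uPAR on myeloid cells, measured 36.2 FPKM in tamoxifen replicate 2. It measured 2.85 to 12.8 FPKM in the other tamoxifen tumors and 2.45 to 4.26 FPKM in vehicle tumors. The integrin gene Itgb2, of the same list, measured 30.7 FPKM in that library, against 20.1 to 29.9 FPKM in vehicle tumors. Fpr1 and Fpr2, formyl peptide receptors that respond to cleaved uPAR in human cells, measured 20.0 and 26.5 FPKM in that library, against at most 2.70 and 6.05 FPKM in the other 7. The part of these cells in the Serpinb2 value was not tested, and in bulk tumors more cells of a type and more RNA per cell cannot be told apart.

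In vehicle tumors the order of mean levels was Plat, Plau, Plaur and Serpinb2, at 8.01, 5.34, 2.50 and 0.381 FPKM. Neighbours in that order overlapped except Plaur and Serpinb2, where the lowest Plaur value was 1.66 FPKM and the highest Serpinb2 value 0.609 FPKM. In tamoxifen tumors the order was Plaur, Plat, Plau and Serpinb2, at 13.0, 12.5, 5.54 and 1.59 FPKM. Plaur and Plat overlapped there, as did Plau and Serpinb2, while the lowest Plat value of 9.65 FPKM was above the highest Plau value of 7.34 FPKM.

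Around these 4 genes, 7 lists with 84 further genes of the pathway were examined, of which 62 were high enough to test. Of the 62, 5 rose, 3 fell and 54 did not pass, so 12.9% passed against 5.45% of all genes tested, and the groups did not overlap in 30.6% against 15.1%. The lists were drawn up with earlier results of these data known, and among them are Ly6g and Etv1, whose results had been seen. The median log2 fold change over the 62 was 0.14, against 0.01 over all tested genes. The count of 8 calls depended on single libraries: it was 2 without vehicle replicate 2 or without vehicle replicate 3, 4 without vehicle replicate 4, 5 without vehicle replicate 1 or tamoxifen replicate 1, 6 without tamoxifen replicate 2 or 4, and 12 without tamoxifen replicate 3.

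**Figure D2:**
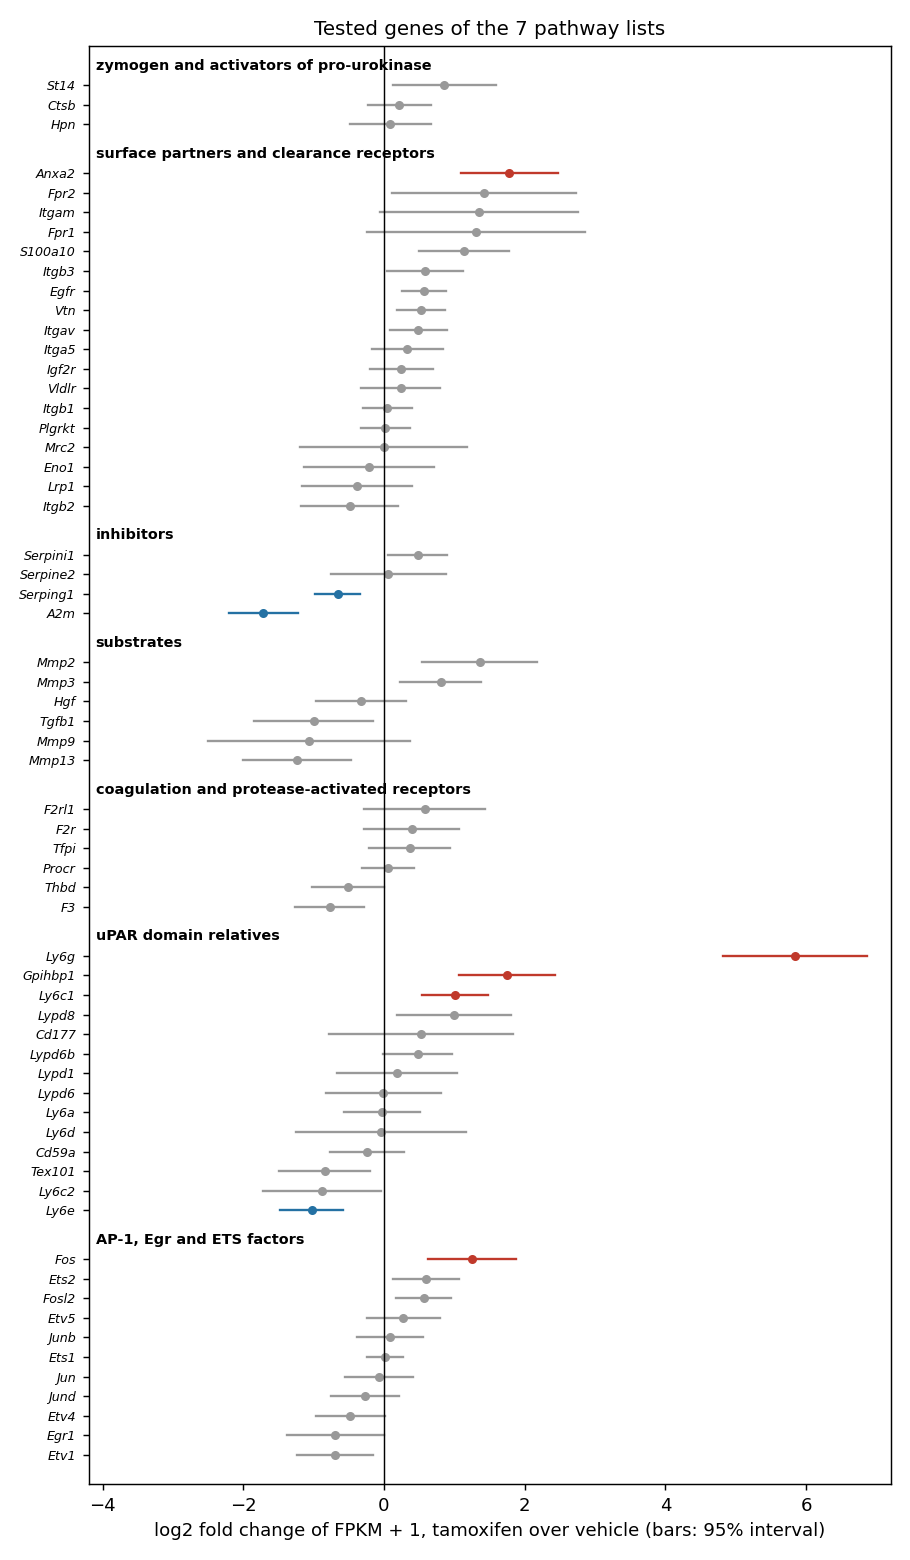
Log2 fold change of FPKM + 1, tamoxifen over vehicle, for the 62 tested genes of the 7 lists, with 95% intervals from limma. Red marks the 5 genes that rose, blue the 3 that fell and grey the 54 that did not pass; Ly6g at 5.84 and A2m at -1.71 lie farthest out.

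Plasminogen itself was near 0 in every tumor. Plg, the zymogen, measured 0.0139, 0.0152, 0.0660 and 0.00909 FPKM in tamoxifen replicates 1 to 4, and 0, 0.00774, 0 and 0 FPKM in vehicle replicates 1 to 4. Of the 6 genes for the zymogen and for proteases that can activate pro-urokinase, 3 were testable and 0 passed in limma, with 1, St14, at an unadjusted p under 0.05. St14, the epithelial membrane protease matriptase, measured 31.9 ± 18.1 FPKM in tamoxifen and 15.8 ± 3.00 FPKM in vehicle tumors (SD, n = 4 each; limma adjusted p = 0.158), with 58.8 FPKM in tamoxifen replicate 4. That library also had the highest summed simple epithelial markers, 4257 FPKM. Ctsb, the lysosomal protease cathepsin B, measured 269 ± 79.3 FPKM in tamoxifen and 225 ± 11.3 FPKM in vehicle tumors (adjusted p = 0.543), at a locus that overlaps that of the expressed gene Fdft1.

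Of 19 surface partners and clearance receptors, 18 were testable, 1 rose and 0 fell, a share of 5.56% against 5.45% of all tested genes. There were 7 at an unadjusted limma p under 0.05. Of the 18 log2 fold changes 14 were above 0 and 4 below, with a median of 0.41. The groups did not overlap in 6 genes, all higher, or 33.3% against 15.1% of all tested genes. Anxa2, annexin A2, binds plasminogen and tPA at the cell surface in a complex with S100a10. It measured 365, 336, 261 and 685 FPKM in tamoxifen replicates 1 to 4, against 134, 118, 77.4 and 125 FPKM in vehicle replicates 1 to 4. Its locus overlaps that of the microRNA gene Mir3109, which has a mean of at least 1 FPKM. The groups were well apart, and Anxa2 rose by 1.78 on the log2 scale (SE 0.30, limma adjusted p = 0.0175). The call was lost without vehicle replicate 2 or 3 (adjusted p = 0.0509 and 0.0525).

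S100a10, the other subunit, singled out after its values were seen, measured 348, 262, 236 and 537 FPKM in tamoxifen replicates 1 to 4, against 178, 157, 104 and 168 FPKM in vehicle replicates 1 to 4. Its groups did not overlap either, but it narrowly missed the threshold (log2 fold change 1.14, SE 0.28, limma adjusted p = 0.0548). It passed without tamoxifen replicate 3 (0.0453), with robust limma (0.0468) and with libraries weighted by quality (0.0451). The ratio of Anxa2 to S100a10 in FPKM, also computed after the values were seen, was 1.05, 1.28, 1.10 and 1.28 in tamoxifen replicates 1 to 4 and 0.751, 0.752, 0.744 and 0.742 in vehicle replicates 1 to 4. It was thus almost constant over the vehicle tumors and higher in each tamoxifen tumor.

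The plasminogen receptor Plgrkt, listed in the table under an older symbol, measured 113 ± 23.8 FPKM in tamoxifen and 110 ± 6.87 FPKM in vehicle tumors (SD, n = 4 each; limma adjusted p = 0.958). Itgb1, the integrin beta 1 chain, which can pair with uPAR, measured 312 ± 55.4 FPKM in tamoxifen and 299 ± 27.0 FPKM in vehicle tumors (adjusted p = 0.889). Lrp1, the endocytic receptor that clears uPA and tPA bound to their inhibitors, measured 244 ± 101 FPKM in tamoxifen and 316 ± 111 FPKM in vehicle tumors (adjusted p = 0.54). Egfr, a receptor that signals together with uPAR, was at the threshold with 9.29 ± 1.05 FPKM in tamoxifen and 5.96 ± 1.02 FPKM in vehicle tumors (adjusted p = 0.0511), and Vtn, the matrix ligand vitronectin, measured 3.13 ± 0.350 FPKM in tamoxifen and 1.88 ± 0.411 FPKM in vehicle tumors (adjusted p = 0.0779). Both were named after their values were seen, and Egfr passed with pseudocounts of 0.1 and 0.25 FPKM (0.0489 and 0.0484) and with libraries weighted by quality (0.0318).

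Of 7 inhibitor genes besides Serpinb2, 4 were testable, 2 fell and 0 rose, a share of 50% against 5.45% of all tested genes. There were 3 at an unadjusted limma p under 0.05, and the median log2 fold change of the 4 was -0.30. Serpini1 went the other way without overlap, at 2.18 ± 0.620 FPKM in tamoxifen and 1.27 ± 0.290 FPKM in vehicle tumors. It did not pass (limma adjusted p = 0.165, and 0.0289 before adjustment). A2m, alpha-2-macroglobulin, traps plasmin and many other proteases. It measured 40.9, 30.5, 57.9 and 39.5 FPKM in tamoxifen replicates 1 to 4, against 175, 120, 112 and 150 FPKM in vehicle replicates 1 to 4. Every tamoxifen tumor was below every vehicle tumor, and A2m fell by 1.71 on the log2 scale (log2 fold change -1.71, SE 0.22, limma adjusted p = 0.0074). It stayed past the threshold in all 12 alternative settings and without each of the 8 libraries (adjusted p = 0.00514 to 0.0381).

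Serping1, the C1 inhibitor, which also inhibits plasmin and plasma kallikrein, fell to 215 ± 28.1 FPKM in tamoxifen tumors, against 339 ± 35.7 FPKM in vehicle tumors (SD, n = 4 each; log2 fold change -0.66, SE 0.14, limma adjusted p = 0.0361). Its tamoxifen values of 176 to 239 FPKM lay below its vehicle values of 300 to 381 FPKM. Leaving out tamoxifen replicate 3 kept this call (0.0461), and leaving out any of the other 7 libraries ended it (0.0549 to 0.102, the highest without vehicle replicate 4), as did testing with no filter on level (0.0512) and scaling to the same total (0.421).

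Serpine2, protease nexin-1, which inhibits uPA, tPA and thrombin, was abundant in both groups. It measured 199, 147, 331 and 138 FPKM in tamoxifen replicates 1 to 4, against 236, 157, 274 and 111 FPKM in vehicle replicates 1 to 4. The groups overlapped over most of their range, and the log2 fold change was 0.06 (95% interval -0.75 to 0.88, limma adjusted p = 0.937).

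**Figure D3:**
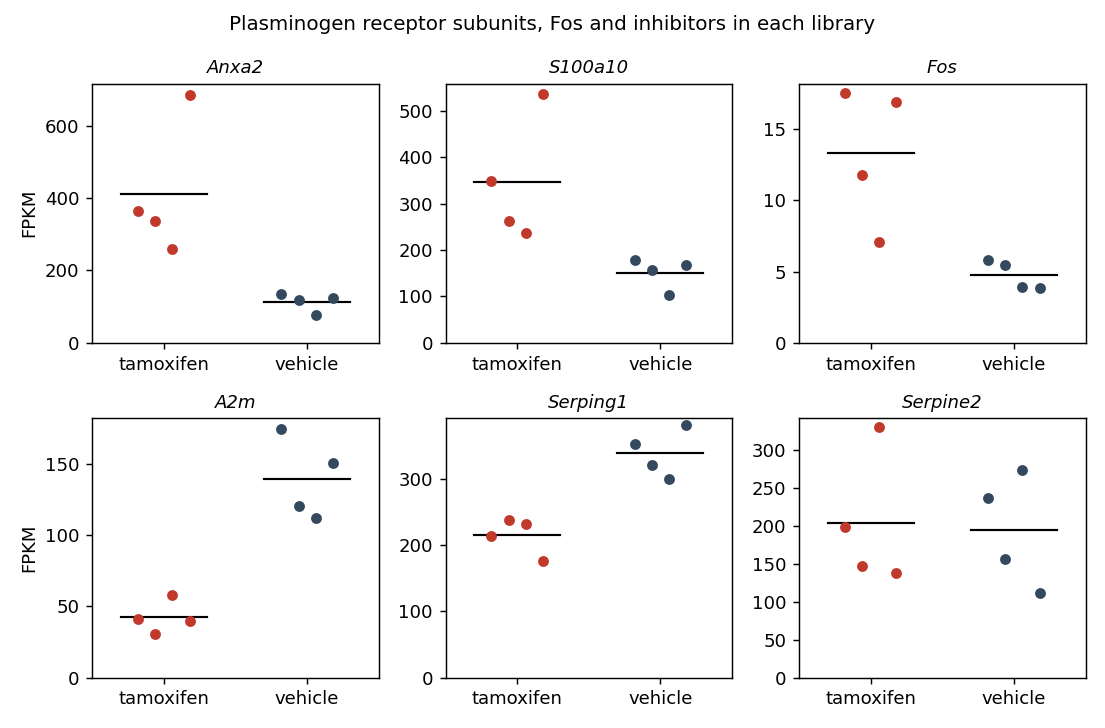
FPKM of the annexin A2 receptor subunits Anxa2 and S100a10, of Fos, and of the inhibitors A2m, Serping1 and Serpine2 in each library, tamoxifen left of vehicle, with black lines at the group mean. Anxa2 lies between 261 and 685 FPKM in tamoxifen tumors and between 77.4 and 134 FPKM in vehicle tumors, A2m between 30.5 and 57.9 FPKM in tamoxifen and between 112 and 175 FPKM in vehicle tumors, and Serpine2 overlaps.

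Of 9 substrate genes, 6 were testable and 0 passed in limma in either direction, with 4 at an unadjusted p under 0.05. The fibrinogen genes Fga, Fgb and Fgg did not exceed 0.0586 FPKM in any library, and Fgb was listed at 0 throughout. Mmp2, a gelatinase, measured 63.8 ± 17.9 FPKM in tamoxifen and 25.6 ± 13.5 FPKM in vehicle tumors (SD, n = 4 each; limma adjusted p = 0.0656), with vehicle replicate 1 at 45.0 FPKM above tamoxifen replicate 3 at 38.2 FPKM. It passed without vehicle replicate 1 (0.0345), without tamoxifen replicate 3 (0.0453), with scaling to the same total (0.0482) and with libraries weighted by quality (0.0497). Tgfb1, whose latent product plasmin can release, measured 27.3 ± 12.2 FPKM in tamoxifen and 50.7 ± 8.52 FPKM in vehicle tumors (adjusted p = 0.157). Of 8 coagulation and protease-activated receptor genes, 6 were testable and 0 passed in limma, with 1, the tissue factor gene F3, at an unadjusted p under 0.05. The thrombin receptor gene F2r measured 112 ± 28.5 FPKM in tamoxifen and 88.4 ± 35.8 FPKM in vehicle tumors (adjusted p = 0.475), and the thrombomodulin gene Thbd 60.2 ± 11.1 FPKM in tamoxifen and 87.1 ± 22.5 FPKM in vehicle tumors (adjusted p = 0.224).

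Of 22 other genes of the Ly6/uPAR domain family, 14 were testable, 3 rose and 1 fell, a share of 28.6% against 5.45% of all tested genes. At an unadjusted limma p under 0.05 there were 7. Among them Ly6c2 and Tex101 lay lower without passing, with log2 fold changes of -0.88 and -0.84 (adjusted p = 0.204 and 0.122). Ly6g, a GPI-anchored protein of mouse neutrophils, measured 170, 158, 97.9 and 162 FPKM in tamoxifen replicates 1 to 4, against 3.42, 3.58, 0.554 and 0.274 FPKM in vehicle replicates 1 to 4 (log2 fold change 5.84, SE 0.45, limma adjusted p = 0.00225). The neutrophil receptor gene Csf3r did not follow it, with 1.78 to 12.2 FPKM in tamoxifen and 2.26 to 6.91 FPKM in vehicle tumors (adjusted p = 0.858). Gpihbp1, which carries lipoprotein lipase on capillary endothelium, rose to 15.3 ± 4.88 FPKM in tamoxifen tumors, against 3.98 ± 2.00 FPKM in vehicle tumors (SD, n = 4 each; log2 fold change 1.75, adjusted p = 0.0176). Ly6c1 rose to 195 ± 56.6 FPKM in tamoxifen tumors, against 94.2 ± 10.8 FPKM in vehicle tumors (log2 fold change 1.01, adjusted p = 0.0327). Ly6e, an interferon-inducible gene, fell to 874 ± 208 FPKM in tamoxifen tumors, against 1759 ± 209 FPKM in vehicle tumors (log2 fold change -1.03, adjusted p = 0.0239).

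The calls of Gpihbp1, Ly6c1 and Ly6e were close to the threshold. Gpihbp1 lost its call without vehicle replicate 2 or 3 (adjusted p = 0.0546 and 0.0578). Ly6c1 lost it without tamoxifen replicate 1 or any 1 vehicle library (0.0706 to 0.0949), with no filter on level (0.0521) and with scaling to the same total (0.0931). Ly6e lost it without tamoxifen replicate 2 or any 1 vehicle library (0.0573 to 0.0765), with no filter on level (0.0689) and with scaling to the same total (0.138). Single Ly6 values are uncertain, since the genes resemble each other and reads may have been shared out among copies. The most abundant relatives were Lypd8, a protein of colonic epithelium, and Ly6a, a marker of progenitor and endothelial cells. Lypd8, listed under an older symbol, measured 2572 ± 1241 FPKM in tamoxifen and 1237 ± 374 FPKM in vehicle tumors (adjusted p = 0.141), and Ly6a 1361 ± 419 FPKM in tamoxifen and 1344 ± 173 FPKM in vehicle tumors (adjusted p = 0.961). Lypd3, a close relative of uPAR encoded near it, did not exceed 0.231 FPKM in any library.

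Among 13 AP-1, Egr and ETS genes, which include known regulators of the Plaur and Plau promoters, 11 were testable, 1 rose and 0 fell. That is a share of 9.09% against 5.45% of all tested genes, with 6 log2 fold changes above 0 and 5 below. At an unadjusted limma p under 0.05 there were 5, of which Egr1 and Etv1 lay lower. Egr1 measured 11.6 ± 2.83 FPKM in tamoxifen and 20.3 ± 8.81 FPKM in vehicle tumors (adjusted p = 0.223). Jun, Junb and Jund had log2 fold changes of -0.07, 0.08 and -0.27. Fos, an AP-1 subunit of the immediate early response, measured 17.5, 11.7, 7.09 and 16.9 FPKM in tamoxifen replicates 1 to 4, against 5.83, 5.49, 3.89 and 3.83 FPKM in vehicle replicates 1 to 4 (log2 fold change 1.25, SE 0.27, limma adjusted p = 0.0378). The groups did not overlap, and the call stood with tamoxifen replicate 3 left out (0.0117). It was lost without each of the other 7 libraries (0.0655 to 0.109, the highest without vehicle replicate 3) and with no filter on level (0.0674). Its relatives Fosl2 and Fosl1 and the ETS gene Ets2 were named after their values were seen. Fosl2 measured 15.8 ± 2.98 FPKM in tamoxifen and 10.3 ± 1.80 FPKM in vehicle tumors (adjusted p = 0.0988), and passed without tamoxifen replicate 3 (0.0379) and with libraries weighted by quality (0.045). Ets2 measured 25.9 ± 6.82 FPKM in tamoxifen and 16.5 ± 2.76 FPKM in vehicle tumors (adjusted p = 0.133), and Fosl1 at most 0.245 FPKM in any library. Etv4, an ETS relative of Etv1, measured 38.6 ± 12.4 FPKM in tamoxifen and 52.5 ± 6.55 FPKM in vehicle tumors (adjusted p = 0.233).

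Marker lists of cell types the tumors could hold were read against the 5.45% of all tested genes that passed, apart from the neutrophil and squamous lists. Of 11 neutrophil markers 6 were testable and 4 rose, a share of 66.7%. Of the 6, Retnlg and Mmp8, with vehicle means of 0.641 and 0.207 FPKM, passed the filter only through their tamoxifen values. The filter thus favoured genes that rose, and this share cannot be set against 5.45%. The list summed to 182 to 476 FPKM in tamoxifen and 7.56 to 28.2 FPKM in vehicle tumors. Besides Ly6g, the calprotectin subunit genes S100a8 and S100a9 rose, at 33.7 to 185 FPKM and 19.3 to 104 FPKM in tamoxifen tumors, against 2.68 to 9.45 FPKM and 1.54 to 5.98 FPKM in vehicle tumors. The granule genes Mpo and Elane, made in neutrophil precursors, stayed at or below 0.249 and 0.128 FPKM. Of 12 macrophage and monocyte markers, all testable, 0 passed in limma and 2 had an unadjusted p under 0.05, and the sums of 823 to 2532 FPKM in tamoxifen and 953 to 1359 FPKM in vehicle tumors overlapped. Of 10 simple epithelial markers, all testable, 1 rose, a share of 10%, and 6 had an unadjusted limma p under 0.05. All 10 log2 fold changes were above 0, with a median of 0.83. The groups did not overlap in 4 of the 10, or 40%, against 15.1% of all tested genes. The sums of 1950 to 4257 FPKM in tamoxifen and 1109 to 2023 FPKM in vehicle tumors overlapped. Of 11 squamous epithelial markers 4 were testable and 3 rose, Csta, Anxa8 and Sprr2h, a share of 75%. Csta and Sprr2h, with vehicle means of 0.258 and 0.582 FPKM, passed the filter only through their tamoxifen values. This share, too, cannot be set against 5.45%. The list summed to 46.4 to 99.4 FPKM in tamoxifen and 5.17 to 11.8 FPKM in vehicle tumors, while the basal keratin Krt5 stayed at or below 0.292 FPKM. Lor, the cornified envelope gene loricrin, was too low to test and lay lower without overlap, with 0.175 to 0.480 FPKM in tamoxifen and 0.717 to 1.44 FPKM in vehicle tumors. Krt5 and Krt6a, also too low to test, lay higher without overlap. Krt5 measured 0.138 to 0.292 FPKM in tamoxifen and 0.00963 to 0.0463 FPKM in vehicle tumors. Krt6a measured 0.0460 to 0.0760 FPKM in tamoxifen and at most 0.0122 FPKM in vehicle tumors. Krt14 and Krt17 overlapped between the groups.

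Of 8 endothelial markers 3 rose, a share of 37.5% against 5.45% of all tested genes, and all 8 had an unadjusted limma p under 0.05. Of 8 fibroblast markers 0 passed in limma and 3 had an unadjusted p under 0.05. Fibroblast sums were 666 to 1284 FPKM in tamoxifen and 468 to 784 FPKM in vehicle tumors. Of 6 tumor lineage markers 1, Edn3, fell and 0 rose, a share of 16.7% against 5.45% of all tested genes. Of their log2 fold changes 5 were below 0, with a median of -0.73 over the list, and 4 markers had an unadjusted limma p under 0.05. Their sums were 1055 to 1501 FPKM in tamoxifen and 1480 to 2200 FPKM in vehicle tumors. None of the mast cell, mesothelial, smooth muscle or enteric neuron and glia markers passed, out of 1, 4, 6 and 5 tested, and 0, 0, 2 and 1 had an unadjusted p under 0.05. Over tamoxifen replicates 1 to 4 Plaur measured 15.4, 11.7, 12.2 and 12.9 FPKM. The neutrophil sum was 230, 438, 182 and 476 FPKM there, and the simple epithelial sum 2720, 2381, 1950 and 4257 FPKM. Ly6g gave 170 FPKM of the neutrophil sum in replicate 1 and 162 FPKM in replicate 4, so the sum does not rank neutrophil content. These 4 libraries are too few to relate Plaur to a marker sum. The part of each cell type in the Plaur and Anxa2 values was not tested.

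**Figure D4:**
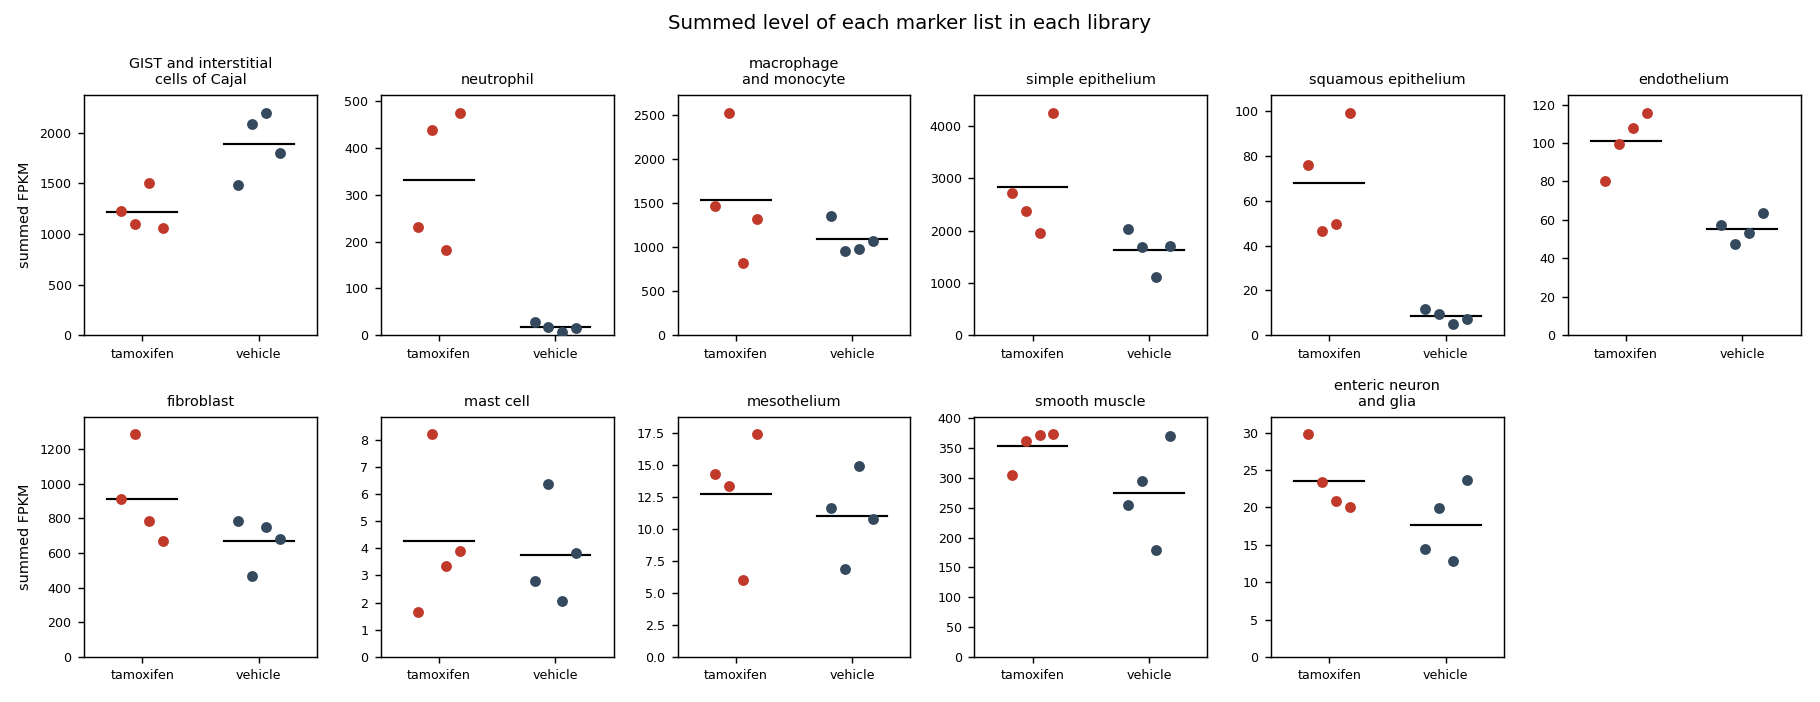
Summed FPKM of the 11 marker lists in each library, tamoxifen left of vehicle, with black lines at the group mean and a separate axis from 0 in each panel. The neutrophil, squamous epithelial and endothelial sums do not overlap between the groups, whereas the macrophage and fibroblast sums do.

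The tested genes whose profiles over the 8 libraries were most like that of Plaur were found by the root mean square difference of log2(FPKM + 1), each gene first centred on its own mean. They were Pde9a, a phosphodiesterase for cyclic GMP (0.24 log2 units), S100a6, a calcium-binding protein (0.24), Abcc9, a subunit of ATP-sensitive potassium channels (0.26), Gsta1, a glutathione transferase (0.29), and Gprc5a, an orphan receptor (0.29). Since Plaur was picked for its difference, genes like it differ too. Pde9a measured 91.9, 95.8, 71.8 and 114 FPKM in tamoxifen replicates 1 to 4, against 22.6, 30.0, 15.6 and 27.2 FPKM in vehicle replicates 1 to 4. Abcc9 measured 11.2 to 14.2 FPKM in tamoxifen and 2.55 to 4.32 FPKM in vehicle tumors, a range near that of Plaur itself.

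Plau and Plat had different neighbours. The profiles nearest to Plau were those of Bcl2a1b (0.20 log2 units), whose locus overlaps that of Mthfs and which has near-identical copies, Rasgef1b (0.20) and St8sia4 (0.20). Like Plau, all 3 had their lowest values in the replicate 3 library of each group, with Bcl2a1b at 7.49 FPKM in tamoxifen and 8.47 FPKM in vehicle replicate 3. Nearest to Plat were Hsd17b11, a steroid dehydrogenase of lipid droplets (0.10), Tox, a nuclear factor of lymphocytes (0.11), and Stom, the membrane protein stomatin (0.11). Hsd17b11 measured 99.2, 83.6, 144 and 111 FPKM in tamoxifen replicates 1 to 4, against 65.4, 76.7, 61.3 and 81.1 FPKM in vehicle replicates 1 to 4. Its order over the 4 libraries of each group was close to that of Plat, with tamoxifen replicate 3 and vehicle replicate 4 highest.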

How the data were processed

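RNA of 8 tumors was sequenced, 4 per group. Groups and replicate numbers come from the sample titles, and every FPKM column was matched to a sample. Per the file headers, the deposited table gives FPKM per gene with confidence bounds and a status, in the layout of Cuffdiff. STAR 2.3, Cufflinks and Cuffdiff are named in the submitters' processing notes with the build mm9, without their roles; strand use and annotation are not stated. The 178 failed estimates were treated as missing, and rows of 1 symbol were summed.

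Of 34586 symbols, 15023 with a mean of at least 1 FPKM and at least 2 estimates per group were tested on log2(FPKM + 1) with limma 3.58.1 in R 4.3.3, using its mean-variance trend and 2-sided tests. Adjusted p are Benjamini-Hochberg values over all tested genes, with a threshold of 0.05. The fit was tried on simulated data over 14764 genes. It recovered 65% of the genes given a log2 change of 1 and 92% of those given 2, and 4.85% of its calls were false. The changed genes all had a mean log2(FPKM + 1) of at least 2, and the noise was normal and independent between genes and libraries. Recovery of lower genes, and false calls where libraries differ in many genes at once, were thus not tested. Absolute depth is unknown, so no counting intervals are given.

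The members and lists were chosen with earlier results of these data known. By rule, the genes named are the members, up to 4 past the threshold and the 2 most abundant of each list, the profiles nearest to the members and the genes next to Plaur. A further 12 were named after their values were seen, as were marker genes given as examples and other list genes given for contrast. Alternatives were 12 settings and leaving out each of the 8 libraries. Gene loci are in mm9; RefSeq promoter coordinates are in GRCm38.p6 and were not joined to them. A further gene is not reported here.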

Additional observations from a re-analysis of the deposited data

Results flagged for a closer look

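In 100 groups of 4 libraries, 1 group for each named gene and treatment, 11 libraries lay far from the other 3 of their group by Dixon's test, which chance flags in about 1 in 20 groups. Tamoxifen replicate 2 was far above the other tamoxifen tumors for Serpinb2 at 4.28 FPKM, Fpr1 at 20.0 FPKM and Fpr2 at 26.5 FPKM. St14 stood high at 58.8 FPKM in tamoxifen replicate 4. Tamoxifen replicate 3 was apart for Ly6g, low at 97.9 FPKM, and for Plg, high at 0.066 FPKM. In vehicle replicate 2, Abcc9 was high at 4.32 FPKM, and Plg at 0.00774 FPKM and Lypd3 at 0.0347 FPKM were the vehicle values above 0. Vehicle replicate 3 was high for Etv4 at 62.2 FPKM and low for Fpr1 at 0.271 FPKM. The cause of none of these was tested.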

How the results depend on the processing

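The count of genes past the threshold, 819 with 358 higher and 461 lower, was 534 with a filter at 5 FPKM and 228 with each library scaled to the same total, where 153 were higher and 75 lower. Scaling to the same total without the immunoglobulin segments Ighj1 and Ighj4 gave 847, with 266 higher and 581 lower, and moved the median log2 fold change of all genes by -0.0907. Leaving out 1 library gave 268 to 856 genes, with 544 and 378 without tamoxifen replicates 1 and 2, and 450, 288, 268 and 274 without vehicle replicates 1 to 4. The pathway count of 8 was 4 with no filter on level, 13 with libraries weighted by quality and 2 to 12 with 1 library left out. The Plaur log2 fold change of 2.02 was 2.36 and 2.29 with pseudocounts of 0.1 and 0.25 FPKM, and 1.89 to 2.08 with 1 library left out. The cause of these shifts was not tested.

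The labels state no pairing by replicate number. Deviations of same-numbered libraries correlated at -0.16, -0.0021, 0.14 and 0.063, which cannot settle whether these libraries were handled in pairs. With the replicate number as a block, 252 genes and 3 of the pathway genes passed, and the calls of Serping1, Fos, Gpihbp1, Ly6e and Ly6c1 were lost.

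Genes near no change turned sign without a call. Scaling to the same total gave 0.037 for Ly6a; without the Ighj segments it gave -0.035 for Plau, -0.057 for Itgb1, -0.042 for Serpine2, -0.022 for Rasgef1b and -0.085 for Plgrkt. Weighting libraries gave -0.0088 for Itgb1 and -0.12 for Serpine2. With 1 library left out, log2 fold changes ran over -0.17 to 0.30 for Plau, -0.055 to 0.14 for Itgb1, -0.20 to 0.25 for Serpine2, -0.20 to 0.16 for Ly6a, -0.058 to 0.50 for Bcl2a1b, -0.066 to 0.24 for Rasgef1b, -0.32 to 0.029 for St8sia4 and -0.12 to 0.086 for Plgrkt. Values under about 1 FPKM, as for Serpinb2 and Plg, rest on few reads of unknown number.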
